A study of Mus musculus with 2 samples.

Results

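The genes followed here mark gamma delta T cells, and in particular those that make interleukin 17. They are Trdc, Tcrg-C1, Tcrg-C2, Tcrg-C4, Trgv2, Blk, Cd163l1, 5830411N06Rik and Sox13. These genes were taken by symbol, as 9 of the 32285 genes counted, and each was present once in both libraries. The data are unique molecular identifier (UMI) counts from 10x Genomics 3′ single-cell libraries. Both libraries came from mice immunized with MOG/CFA, which induces experimental autoimmune encephalomyelitis (EAE), a model of autoimmune inflammation of the central nervous system. Cells were sorted as CD4+YFP+ at the peak of disease. The control library is from Il17Cre/R26YFP mice and the other from Il17Cre/Id2f/f/R26YFP mice. Both genotypes carry the Il17Cre allele, which turns on YFP in any cell that has expressed the Cre, whether alpha beta or gamma delta. In the second genotype the same Cre also deletes the floxed Id2 gene, and this library is called Id2-deficient here.

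Each genotype was 1 library, the sources used here do not give the number of mice behind it, and nothing measures the spread between mice. So no difference between the libraries was tested, and no p-value is given. Intervals are 95% intervals that cover counting error only: exact Poisson for UMI sums, Clopper-Pearson for shares of cells, and exact conditional binomial for ratios. The labels differ on the tissue, naming draining lymph node in the titles, spleen and lymph node as the source, and spleen in the protocol.

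A gamma delta T cell receptor pairs a delta chain with a gamma chain, in place of the alpha and beta chains of a CD4 T cell. Trdc encodes the only delta constant region, while Tcrg-C1, Tcrg-C2 and Tcrg-C4 encode gamma constant regions, and Trgv2 is a gamma variable segment that lies between Tcrg-C2 and Tcrg-C4. Blk is a Src family kinase first known from B cells, and Sox13 is a transcription factor of the gamma delta lineage. Both are known to be needed for gamma delta cells that make interleukin 17. Cd163l1 (Scart1) and 5830411N06Rik (Scart2) encode scavenger receptors of the same family that are used as surface markers of such cells. Id2 is an inhibitor of E proteins, transcription factors that bind the E-box motif and act at antigen receptor loci.

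The gene models place the gamma genes together on chromosome 13 (GRCm38, GENCODE M21). Tcrg-C1 lies at chr13:19214103-19217024, Tcrg-C2 at chr13:19304649-19307551, Trgv2 at chr13:19336573-19337167 and Tcrg-C4 at chr13:19344558-19352756. Trdc lies at chr14:54142851-54148868, and overlaps the gene model Gm43434 and, on the opposite strand, the variable segment Trdv5, so reads of these can be mixed where strand was not used in counting. Blk is at chr14:63372836-63417037 and Sox13 at chr1:133382303-133424377. Cd163l1 (chr7:140218267-140231145) and 5830411N06Rik (chr7:140247284-140300736) are neighbours on the same strand, 16.1 kb apart with no annotated gene between them.

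How well the gamma genes can be told apart depends on their sequence, so the coding part of the last exon of each constant gene is shown, on its own strand from 5′ to 3′. Capitals mark bases unlike Tcrg-C1. The stretches lie at chr13:19216476-19216615 (+) for Tcrg-C1, chr13:19305063-19305202 (-) for Tcrg-C2 and chr13:19352201-19352340 (+) for Tcrg-C4.
Tcrg-C1: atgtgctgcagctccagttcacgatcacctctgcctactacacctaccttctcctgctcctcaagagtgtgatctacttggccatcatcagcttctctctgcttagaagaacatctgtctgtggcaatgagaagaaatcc
Tcrg-C2: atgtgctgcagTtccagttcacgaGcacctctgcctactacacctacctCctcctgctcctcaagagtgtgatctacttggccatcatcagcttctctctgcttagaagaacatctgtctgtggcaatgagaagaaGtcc
Tcrg-C4: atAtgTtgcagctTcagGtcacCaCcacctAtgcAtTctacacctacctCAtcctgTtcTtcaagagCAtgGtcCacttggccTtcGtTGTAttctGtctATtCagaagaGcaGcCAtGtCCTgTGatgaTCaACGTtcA
Tcrg-C2 differs from Tcrg-C1 at 4 of these 140 bases and Tcrg-C4 at 44. Over the whole last exon, Tcrg-C1 and Tcrg-C2 were 95.1% identical and shared an unbroken run of 104 bases. Tcrg-C4 was 59.3% identical to Tcrg-C1, with no shared run over 12 bases. Reads may therefore be divided between Tcrg-C1 and Tcrg-C2 or lost from both, and their separate counts are uncertain, while Tcrg-C4 is distinct.

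The control library held 4937 barcodes with 33646845 UMIs and the Id2-deficient library 2459 barcodes with 14668624 UMIs, and 3 barcode sequences occurred in both. The filter of at least 200 genes and at most 10% mitochondrial UMIs removed 12 and 525 barcodes. T cells were then taken as barcodes with at least 2 UMIs over Cd3e, Cd3d and Cd3g and at most 1 over B cell genes including Cd79a and Ms4a1, which left 4770 control and 1871 Id2-deficient cells. Their median depth was 5474.5 and 6394 UMIs, and their median mitochondrial share was 1.75% and 4.18%. Id2 itself was at 338 UMIs per 1000000 UMIs (CPM) in control and 12.3 in Id2-deficient T cells, 27.4-fold lower, and 53 of the 1871 Id2-deficient cells still held an Id2 UMI. Over 7 neutrophil genes such as S100a8, the summed level in Trdc-high cells was 127 CPM in control and 2.45 CPM in Id2-deficient cells, and in cells without Trdc 667 and 2.09 CPM. The part of this other RNA in the comparisons between libraries was not tested.

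Cells with at least 3 Trdc UMIs are called Trdc-high, and they are compared with T cells that had no Trdc UMI. Trdc-high cells were 610 of 4770 control T cells (12.8%, 11.9 to 13.8) and 147 of 1871 Id2-deficient T cells (7.86%, 6.68 to 9.17). A T cell gate that also counted Cd79b as a B cell gene had been laid down first. It was replaced after seeing the data because it removed 177 control and 57 Id2-deficient Trdc-high cells. Under that first gate, the shares were 9.63% and 4.99%. With the Trdc gate at 5 UMIs the shares were 7.32% and 6.47%, and after thinning to 1000 UMIs 1.26% and 1.07%. The gap between the libraries was smaller under both. At a gate of 2 UMIs the gap was wider, with 135 more control and 5 more Id2-deficient cells taken in. B cells should not express T cell receptor genes, so they were used as a background for free RNA. Their gate allowed at most 1 CD3 UMI. It thus left out barcodes with more T cell RNA, and this background may be too low. Trdc and the 3 gamma constant genes had no UMI in any of 41 control and 38 Id2-deficient B cells, of median depth 3655 and 4923 UMIs, which allows a share of up to 7.32% and 7.89% of such cells with a UMI (3 cells of the total).

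The edge of the Trdc gate was not sharp in control. Among the 135 control cells with 2 Trdc UMIs, just outside the gate, 94.8% held gamma constant RNA and 72.6% held Blk. Among the 146 with 3 Trdc UMIs, just inside, the shares were 94.5% and 80.8%. In Id2-deficient T cells only 5 cells had 2 Trdc UMIs and 10 had 3, and 102 of the 147 Trdc-high cells had 7 or more.

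Despite the CD4 sort, Cd4 RNA was found in 11.8% of control and 12.2% of Id2-deficient Trdc-high cells, against 65.4% and 77.9% of T cells without Trdc. Trac, the alpha constant gene, stood at 130 CPM in control Trdc-high cells and 675 CPM in control cells without Trdc. The Id2-deficient values were 206 and 1085 CPM. Trbc2, a beta constant gene, was in 96.6% and 100% of Trdc-high cells, so it did not mark alpha beta cells here. Cd8a had no UMI in either set of Trdc-high cells, with intervals that reach 0.603% and 2.48% of them. By these markers most Trdc-high cells had the RNA of gamma delta T cells, with an exception among Id2-deficient cells given with the gamma chain counts.

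Summed over all T cells, 6 of the 9 genes were at least 1.5-fold lower in the Id2-deficient library: Tcrg-C1, Tcrg-C2, Tcrg-C4, Trgv2, Blk and Sox13. Of all 11061 genes with at least 50 UMIs over both libraries, 9.76% were lower by that much and 16.2% higher, and the median gene differed by 0.08 on the log2 scale. At 2-fold, 3 members were lower (Tcrg-C1, Trgv2 and Blk), against 4.66% of all genes. With every gene of at least 1 UMI as the background, 10.7% were lower at 1.5-fold.

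Of the receptor genes, Trgv2 differed most between the libraries, at 69.7 CPM (66.8 to 72.6) in control and 24.2 CPM (21.7 to 26.9) in Id2-deficient T cells, a log2 difference of -1.53 (-1.70 to -1.36). Tcrg-C1 was at 87.2 and 42.1 CPM, a log2 difference of -1.05 (-1.18 to -0.92). Tcrg-C2 was at 62.5 and 31.8 CPM, a log2 difference of -0.98 (-1.13 to -0.83). Tcrg-C4, the gamma constant gene whose reads are distinct, was at 25.0 and 12.6 CPM, a log2 difference of -0.99 (-1.23 to -0.75). The 3 gamma constant genes were thus lower by about the same factor. Trdc differed less, at 153 CPM in control and 134 CPM in Id2-deficient T cells, a log2 difference of -0.19 (-0.26 to -0.11). It was found in 878 control cells (18.4%) with a median of 4 UMIs in those cells, and in 167 Id2-deficient cells (8.93%) with a median of 8 UMIs.

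Among the other genes, Blk was at 65.4 CPM in control and 32.1 CPM in Id2-deficient T cells, a log2 difference of -1.03 (-1.18 to -0.88). Sox13 was at 11.9 and 7.32 CPM, a log2 difference of -0.70 (-1.03 to -0.38). With at least 500 genes and at most 5% mitochondrial UMIs per cell, it was -0.42, short of 1.5-fold, and that of Trdc was 0.03. The scavenger receptor genes were closer to equal at full depth. Cd163l1 was at 46.5 and 43.4 CPM, a log2 difference of -0.10 (-0.24 to 0.04). For 5830411N06Rik the levels were 124 and 119 CPM, a log2 difference of -0.06 (-0.14 to 0.02). Because depth differed between the libraries, cells were also thinned to 1000 UMIs each, and 1 control cell and 4 of the Id2-deficient library were too shallow for this. Blk was then in 5.31% of control and 2.14% of Id2-deficient T cells, 5830411N06Rik in 9.04% and 8.20%, and Cd163l1 in 3.15% and 2.36%. Unthinned, the shares were 16% and 7.38% for Blk, 20.3% and 20.6% for 5830411N06Rik, and 8.18% and 12.7% for Cd163l1, so that the order of the libraries for Cd163l1 turned. After thinning, the log2 difference of Cd163l1 was -0.56 (-1 to -0.13) and that of Trdc -0.41.

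**Figure D1:**
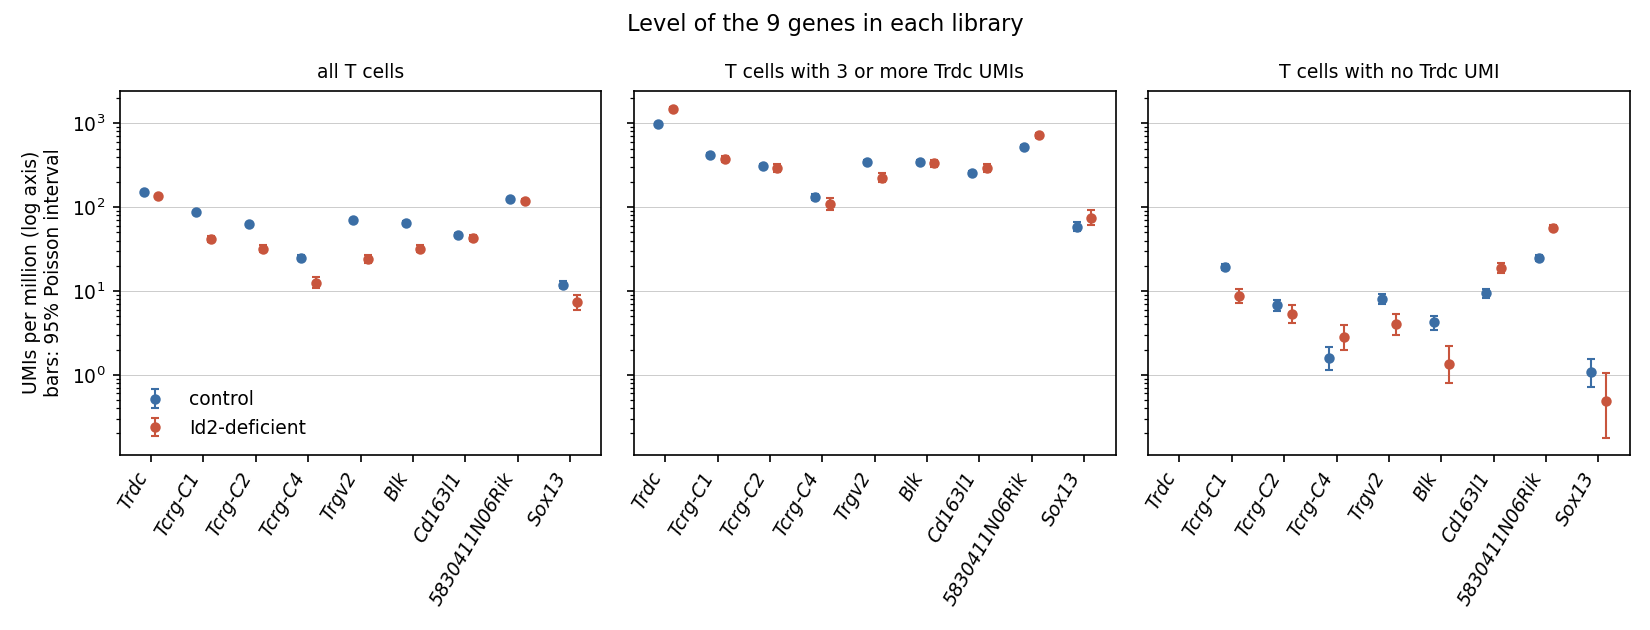
Level of each of the 9 genes in CPM (log axis) in all T cells, in Trdc-high cells and in T cells with no Trdc UMI, for the control (blue) and Id2-deficient (red) libraries. Points are CPM of summed UMIs and bars are 95% Poisson intervals. Trdc is set by the gate in the panels of Trdc-high cells and of cells with no Trdc UMI. The libraries lie closer together in Trdc-high cells than over all T cells for the gamma constant genes and Blk, and Cd163l1 and 5830411N06Rik are higher in the Id2-deficient library in cells with no Trdc UMI.

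Within Trdc-high cells most of the gap between the libraries was gone for the gamma constant genes and Blk, and that of Trgv2 was smaller. Sox13 went from lower to higher in Id2-deficient cells, and the scavenger receptor genes, close to equal over all T cells, were higher there. Of the 8 genes other than Trdc, 1 (Trgv2) was at least 1.5-fold lower in Id2-deficient cells and none was that much higher, against 9.46% of 7611 genes lower and 9.8% higher. Trgv2 was at 343 CPM (326 to 360) in control and 225 CPM (199 to 253) in Id2-deficient Trdc-high cells, a log2 difference of -0.61 (-0.80 to -0.42), and was found in 72.5% and 59.2% of the cells. The fold was 1.52, close to the threshold of 1.5. With Trdc-high cells required to hold a gamma constant UMI, the log2 difference was -0.47 and no gene was 1.5-fold lower.

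For the gamma constant genes, Tcrg-C1 was at 421 CPM in control and 375 CPM in Id2-deficient Trdc-high cells, a log2 difference of -0.17 (-0.32 to -0.02). Tcrg-C2 was at 313 and 294 CPM, a log2 difference of -0.09 (-0.26 to 0.07). Tcrg-C4 was at 131 and 109 CPM, a log2 difference of -0.26 (-0.54 to 0.01). Blk, the kinase, was at 348 and 334 CPM, a log2 difference of -0.06 (-0.22 to 0.10). These intervals do not reach 1.5-fold, but under the first T cell gate the log2 difference was -0.57 (-0.97 to -0.19) for Tcrg-C4 and -0.34 (-0.58 to -0.10) for Tcrg-C2. The remaining 3 genes were somewhat higher in the Id2-deficient cells at this gate. Sox13 was at 58.4 and 75.1 CPM, a log2 difference of 0.36 (0.00 to 0.71). Cd163l1 was at 257 and 295 CPM, a log2 difference of 0.20 (0.02 to 0.37). At a gate of 5 Trdc UMIs it turned to -0.18 (-0.37 to 0.00), and without the deepest 4% of cells the intervals of Cd163l1 and Sox13 both included 0. For 5830411N06Rik the levels were 527 and 720 CPM, a log2 difference of 0.45 (0.34 to 0.56). With a gamma constant UMI required, the log2 differences were 0.54 (0.18 to 0.89) for Sox13, 0.34 (0.17 to 0.51) for Cd163l1 and 0.54 (0.43 to 0.66) for 5830411N06Rik. Those of Tcrg-C1, Tcrg-C2, Tcrg-C4 and Blk were then -0.02, 0.05, -0.12 and 0.09. This setting was chosen after seeing the data. Id2 was at 445 CPM in control and 19.6 CPM in Id2-deficient Trdc-high cells, where 24 UMIs were spread over 10 of 147 cells. The level of Trdc in these cells is set in part by the gate and is not compared.

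In T cells with no Trdc UMI, 3892 in control and 1704 in Id2-deficient, the scavenger receptor genes parted from the receptor genes and Blk. Cd163l1 was in 186 control cells (4.78%, 4.13 to 5.50) and 192 Id2-deficient cells (11.3%, 9.80 to 12.9), at 9.38 and 18.9 CPM, a log2 difference of 1.01 (0.74 to 1.27). The gene 5830411N06Rik was in 275 control cells (7.07%, 6.28 to 7.92) and 266 Id2-deficient cells (15.6%, 13.9 to 17.4), at 24.6 and 56.9 CPM, a log2 difference of 1.21 (1.05 to 1.37). The background in these cells, over 10797 genes, was 16.6% higher and 9.56% lower by 1.5-fold in the Id2-deficient library. Of the 7 members with at least 50 UMIs here, Cd163l1, 5830411N06Rik and Tcrg-C4 were that much higher, and Tcrg-C1, Trgv2 and Blk that much lower. Sox13 had only 28 control and 6 Id2-deficient UMIs and is not counted. Tcrg-C4 rested on 41 control UMIs in 33 cells and 35 Id2-deficient UMIs in 8 cells. Blk was at 4.23 and 1.36 CPM and Tcrg-C1 at 19.5 and 8.83 CPM.

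Most of the cells with no Trdc UMI that held a scavenger receptor transcript had Trac and Cd4 RNA, more so in the Id2-deficient library than in control. The same held for all T cells with no Trdc UMI, so it is not particular to these cells. Over all of them, Trac was in 90.9% of control and 98.1% of Id2-deficient cells, and Cd4 in 65.4% and 77.9%. Of the 159 Id2-deficient cells with Cd163l1 but not 5830411N06Rik, 159 held Trac, 130 held Cd4, 8 held Tcrg-C1 and none held Blk or Sox13. Of the 233 Id2-deficient cells with 5830411N06Rik but not Cd163l1, 227 held Trac, 182 held Cd4, 15 held Tcrg-C1 and 7 held Blk. In control, 209 of the 253 such cells held Trac, 143 held Cd4, 66 held Tcrg-C1 and 26 held Blk. Of the 164 control cells with Cd163l1 alone, 142 held Trac, 117 held Cd4 and none held Blk. Of the 22 control cells with both genes, 14 held Trac, 14 held Cd4 and 7 held Blk. In B cells, as a background, each of the 2 genes had a UMI in 0 of 41 control and 1 of 38 Id2-deficient cells (2.63%). Trdc-high cells gave 78.2% of the Cd163l1 UMIs of control T cells and 60.4% of those of Id2-deficient T cells. For 5830411N06Rik the shares were 59.9% and 53.6%, while for Blk they were 75.2% and 92.3%.

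Cd163l1 and 5830411N06Rik were both higher in those cells, so their promoter windows are shown (RefSeq, GRCm38.p6, plus strand, 250 bases before to 50 after the start), with E-box matches in capitals. The motif searched was CANNTG, which reads the same on both strands. The windows are chr7:140218017-140218316 for Cd163l1 and chr7:140247051-140247350 for 5830411N06Rik, the most upstream of its 3 listed starts.
Cd163l1: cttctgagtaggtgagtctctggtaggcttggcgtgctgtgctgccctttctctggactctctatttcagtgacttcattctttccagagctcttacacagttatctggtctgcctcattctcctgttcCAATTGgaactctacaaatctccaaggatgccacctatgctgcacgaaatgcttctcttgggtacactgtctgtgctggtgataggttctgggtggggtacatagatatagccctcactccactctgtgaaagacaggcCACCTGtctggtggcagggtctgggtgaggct
5830411N06Rik: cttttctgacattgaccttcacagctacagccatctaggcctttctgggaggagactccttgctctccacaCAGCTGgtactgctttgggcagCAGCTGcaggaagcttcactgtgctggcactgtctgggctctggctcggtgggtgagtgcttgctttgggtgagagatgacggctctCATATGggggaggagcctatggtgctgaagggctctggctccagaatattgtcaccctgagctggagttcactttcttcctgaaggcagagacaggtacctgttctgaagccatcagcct
The first holds 2 matches and the second 3. Of all 32851 promoter windows of that length, 72.3% hold at least 1 match, 39.6% at least 2 and 17.6% at least 3. RefSeq windows were found for 3 of the 9 genes, the other being Sox13.

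Within each library, the other 8 genes were all higher in Trdc-high cells than in cells with no Trdc UMI. By the same rule, at least 1.5-fold higher in both libraries, 5.78% of all genes were higher and 6.29% lower. Blk was 82.3-fold (67.8 to 101) higher in control and 245-fold (151 to 424) higher in Id2-deficient cells. Sox13 was 54.3-fold (36.7 to 83.2) and 156-fold (68.9 to 436) higher. The folds of Cd163l1 were 27.5 and 15.7 and those of 5830411N06Rik 21.4 and 12.7, both lower in the Id2-deficient library, where their level in cells without Trdc was higher. Tcrg-C1 was 21.6-fold and 42.5-fold higher, Tcrg-C2 46.1-fold and 54.6-fold, Tcrg-C4 83.2-fold and 38.9-fold, and Trgv2 43.1-fold and 56.1-fold.

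In single Trdc-high cells the genes were found together. A control cell held a median of 6 of the 9 genes and an Id2-deficient cell also 6, and at least 5 were found in 539 control (88.4%) and 118 Id2-deficient (80.3%) cells. All 9 were found in 10 and 3 cells. Among cells with no Trdc UMI, 40 control (1.03%) and 8 Id2-deficient (0.469%) cells held 4 or more of the other 8. Blk was in 86.1% of control and 81.0% of Id2-deficient Trdc-high cells, and Sox13, a gene of low counts, in 33.6% and 42.9%.

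Most cells held RNA from more than 1 gamma constant gene. In control Trdc-high cells, 16 held none of the 3, 124 held 1, 263 held 2 and 207 held all 3. In Id2-deficient Trdc-high cells the numbers were 20, 18, 58 and 51. Tcrg-C1 and Tcrg-C2 can share reads, but Tcrg-C4, with its own sequence, was found in 55.9% of control and 63.2% of Id2-deficient Tcrg-C1 cells among them. Across Trdc-high cells, Tcrg-C2 went with Trgv2, with a Pearson r of 0.56 in 610 control cells and 0.73 in 147 Id2-deficient cells on log2(UMIs per 10000 + 1). The r of Tcrg-C1 with Trgv2 was -0.07 and 0.04. These correlations are across cells that share a library, its depth and its free RNA, and are descriptions.

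**Figure D2:**
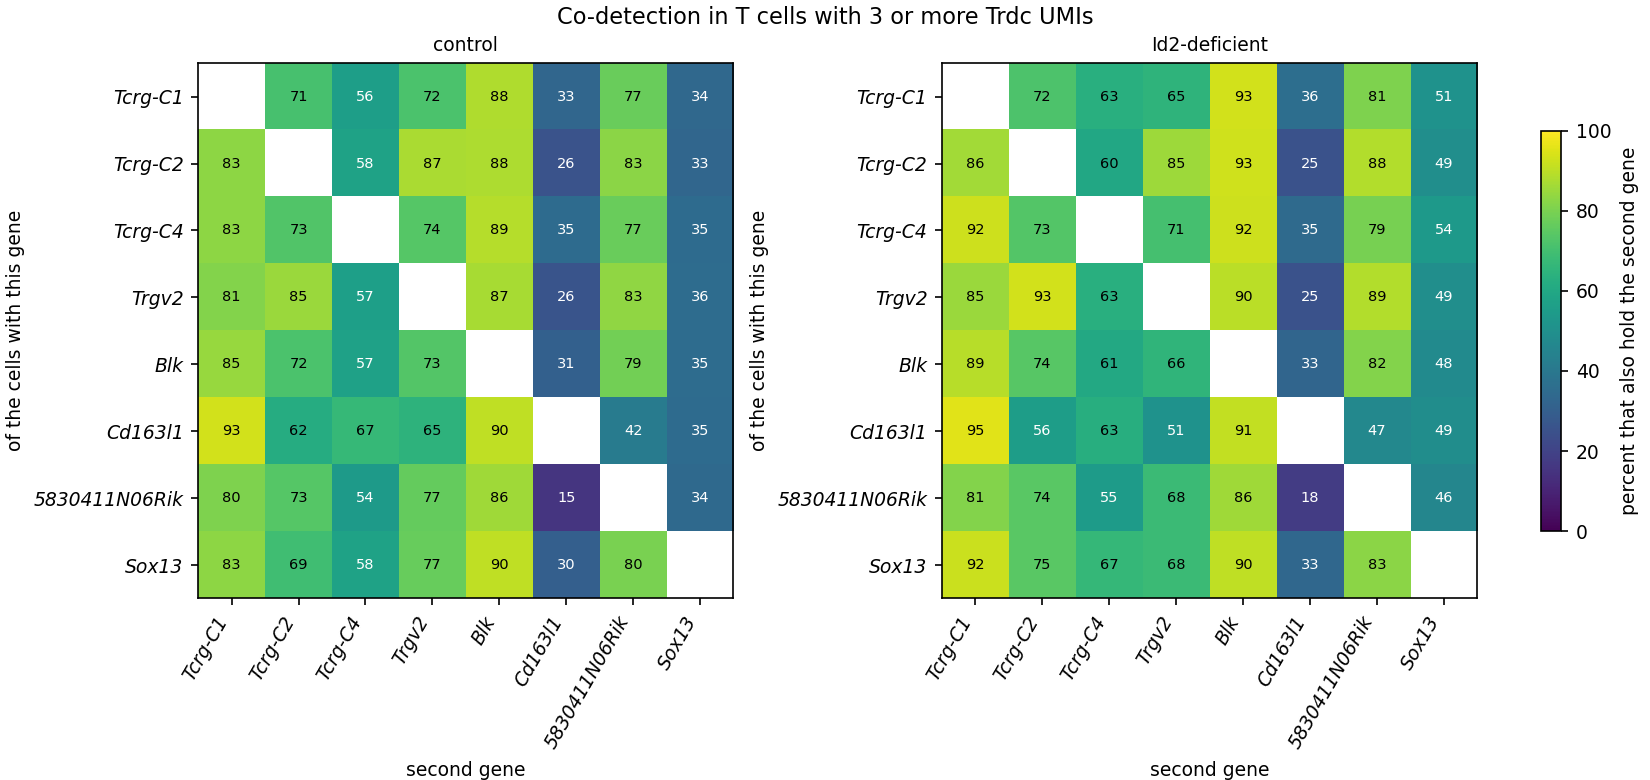
Co-detection of the 8 genes other than Trdc in Trdc-high cells, as the percent of the cells holding the gene in the row that also hold the gene in the column, for control (left) and Id2-deficient (right) cells. The share of 5830411N06Rik cells that also held Cd163l1 was low in both libraries, at 15% in control and 18% in Id2-deficient. The other way, 74 of 178 control and 20 of 43 Id2-deficient Cd163l1 cells also held 5830411N06Rik.

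Cd163l1 and 5830411N06Rik divided most of the Trdc-high cells, but the overlap was large among Cd163l1 cells. Of these, 74 of 178 in control and 20 of 43 in the Id2-deficient library also held 5830411N06Rik. In control, 104 cells (17%) held Cd163l1 alone, 408 (66.9%) held 5830411N06Rik alone, 74 (12.1%) held both and 24 (3.93%) neither. In the Id2-deficient library the numbers were 23 (15.6%), 93 (63.3%), 20 (13.6%) and 11 (7.48%). Pearson's r between the 2 genes was -0.62 and -0.57. The division was seen in both libraries, and the share with neither gene was the larger one in the Id2-deficient library.

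The division ran along variable segments. Of the 104 control cells with Cd163l1 alone, 59 held Tcrg-V6, 95 held Trdv4, 6 held Tcrg-V4 and 1 held Trdv5. Of the 408 with 5830411N06Rik alone, 3 held Tcrg-V6, 39 held Trdv4, 110 held Tcrg-V4 and 97 held Trdv5. In the Id2-deficient library, 13 of 23 cells with Cd163l1 alone held Tcrg-V6, 20 held Trdv4 and 1 held Tcrg-V4. Of its 93 cells with 5830411N06Rik alone, none held Tcrg-V6, 5 held Trdv4, 27 held Tcrg-V4 and 36 held Trdv5. Trgv2 was found in 57.7% of control cells with Cd163l1 alone and 77.0% of those with 5830411N06Rik alone, and in 43.5% and 69.9% in the Id2-deficient library. Cells with both genes were like the second group in control, with Tcrg-V4 in 30 of 74 and Tcrg-V6 in none. The cells were grouped by the same counts in which the segments were found, so these are descriptions of 1 library each.

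The interleukin 17 genes were also counted in the same groups of cells. In control, Il17a was in 14 of 104 cells with Cd163l1 alone and 28 of 408 with 5830411N06Rik alone, while Il17f was in 1 of 104 and 52 of 408. In the Id2-deficient library, Il17a was in 1 of 23 and 7 of 93, and Il17f in 2 of 23 and 24 of 93. Cells with 5830411N06Rik alone thus had the higher share with Il17f in both libraries, while the order for Il17a was not the same in the libraries. Neither was tested. Trdc itself went with Cd163l1 (r of 0.43 and 0.38) and against 5830411N06Rik (r of -0.32 and -0.38) across Trdc-high cells.

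**Figure D3:**
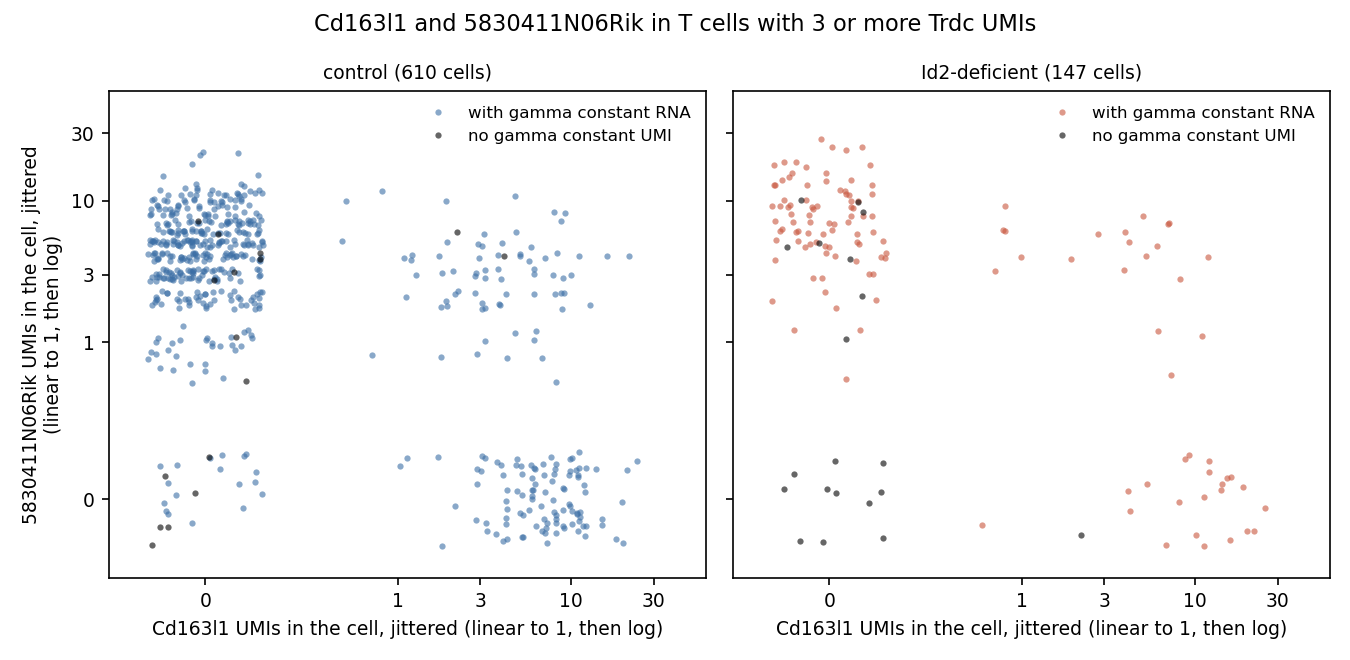
UMIs of Cd163l1 (horizontal) and 5830411N06Rik (vertical) in each Trdc-high cell of the control (610 cells) and Id2-deficient (147 cells) libraries, jittered, on axes that are linear to 1 and logarithmic above. Black points had no gamma constant UMI. Most cells lie along one axis or the other, and 11 Id2-deficient cells, all black, lie at the origin.

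Gamma constant RNA was found in 97.4% (95.8 to 98.5) of control Trdc-high cells and in 86.4% (79.8 to 91.5) of Id2-deficient ones. The Id2-deficient cells were the deeper ones, with a median of 8131 against 6100 UMIs. Under the first T cell gate the Id2-deficient share was 78.9%. In control the share went from 72.2% of 133 cells with 1 Trdc UMI to 99.1% of 215 cells with 7 or more. In the Id2-deficient library it was 13.3% of 15 cells with 1 Trdc UMI and 88.2% of 102 cells with 7 or more. In that last bin, 12 Id2-deficient and 2 control cells held no gamma constant UMI.

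**Figure D4:**
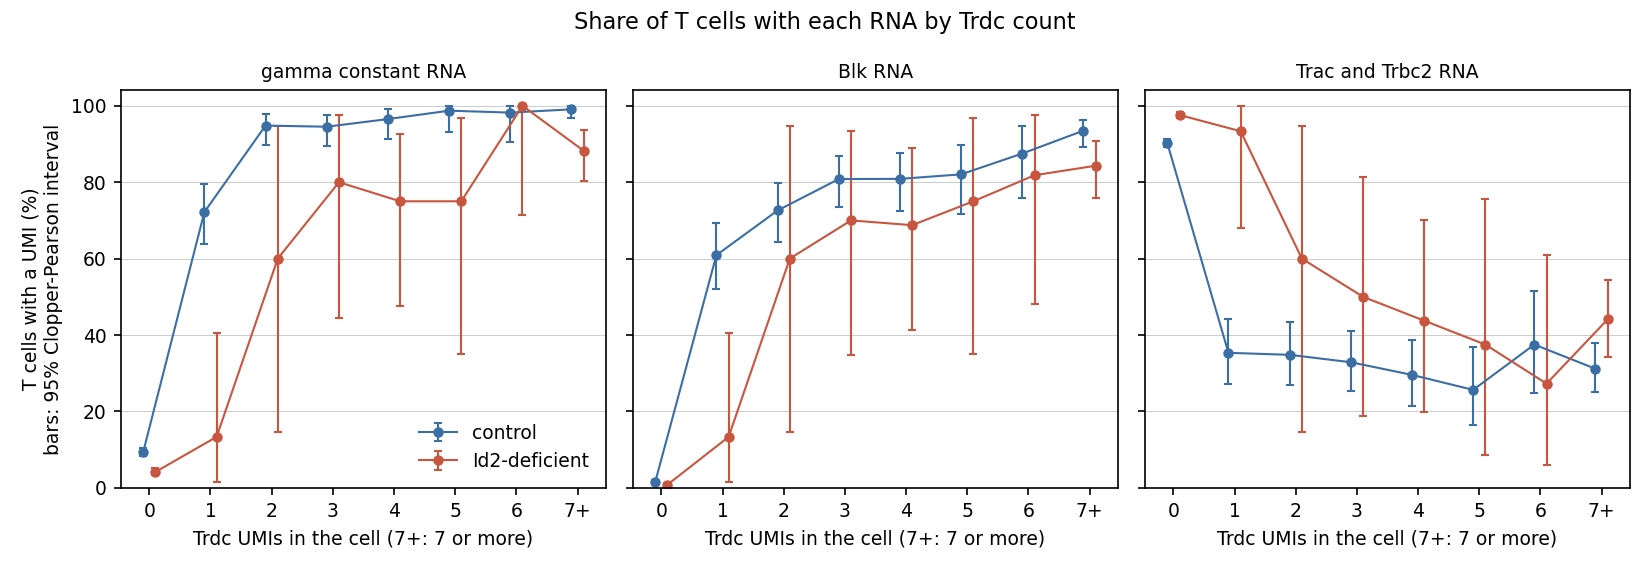
Percent of T cells with gamma constant RNA (Tcrg-C1, Tcrg-C2 or Tcrg-C4), with Blk RNA and with both Trac and Trbc2 RNA, by the number of Trdc UMIs in the cell, for control (blue) and Id2-deficient (red). Bars are 95% Clopper-Pearson intervals, which are wide for the Id2-deficient cells with 1 to 6 Trdc UMIs (5 to 16 cells a bin). At 7 or more Trdc UMIs, 88.2% of Id2-deficient cells and 99.1% of control cells held gamma constant RNA.

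Of the Trdc-high cells without gamma constant RNA, 18 of 20 in the Id2-deficient library and 6 of 16 in control held both Trac and Trbc2. T cells with at least 1 Trac and 1 Trbc2 UMI numbered 3797 in control and 1743 in the Id2-deficient library. Of these, 284 control cells (7.48%) and 80 Id2-deficient cells (4.59%) also held Trdc. Of the cells with all 3, 37 of 284 control cells (13%, 9.34 to 17.5) and 33 of 80 Id2-deficient cells (41.3%, 30.4 to 52.8) held no gamma constant UMI. Under the first T cell gate these shares were 17.6% and 56.1%. They also depend on the cells with gamma chain RNA, which were 6.51% of all control Trac and Trbc2 cells and 2.70% of Id2-deficient ones. Over all Trac and Trbc2 cells, those with Trdc but no gamma constant UMI were 0.974% (0.687 to 1.34) in control and 1.89% (1.31 to 2.65) in Id2-deficient. With 1 or 2 Trdc UMIs they were 0.816% and 0.861%, and with 3 or more 0.158% and 1.03%. In control, 31 of the 37 held only 1 or 2 Trdc UMIs, and the highest count was 5. In the Id2-deficient library 18 of the 33 held 3 or more, with a median of 10 and a highest count of 41 in those 18.

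The cells without gamma chain RNA had CD4 T cell markers and lacked most of the 9 genes. Of the 33 Id2-deficient cells, 25 held Cd4, 1 held Blk, 9 held 5830411N06Rik, 3 held Cd163l1 and none held Sox13 or Trgv2. Of the 47 Id2-deficient cells with gamma chain RNA, 4 held Cd4, 44 held Blk, 25 held Sox13 and 33 held Trgv2. In control, the 37 cells without gamma chain RNA held Cd4 in 24 and Blk in 2, and the 247 with it held Cd4 in 84 and Blk in 205. Median depth was 6148 UMIs in the Id2-deficient cells without gamma chain RNA and 8811 in those with it, and 6114 and 8004 UMIs in control. Doublets were not called. A cell pair of a Trdc-high cell and an alpha beta cell would hold both kinds of RNA, and its part in the 247 and 47 cells with gamma chain RNA was not tested.

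All 11 Id2-deficient Trdc-high cells that held neither scavenger receptor gene were of this kind: 11 held Trac, 8 held Cd4, and none held a gamma constant gene, Blk or Sox13. Of the 24 such control cells, 16 held Blk and 12 held Tcrg-C1. The gate on Trdc thus took in cells in the Id2-deficient library that do not carry the rest of the gene set. For those 11 the data go against the name gamma delta. They are among the 18 Id2-deficient Trdc-high cells with Trac and Trbc2 but no gamma constant UMI. Of the 18, 14 held Cd4, 6 held 5830411N06Rik, 1 held Cd163l1, 1 held Blk and none held Sox13 or Trgv2. The name is thus in doubt for most of the 18. With the 127 Id2-deficient and 594 control Trdc-high cells that held a gamma constant UMI, Blk was in 92.9% and 87.2%, Sox13 in 49.6% and 33.8% and Cd4 in 3.15% and 11.3%.

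The Id2-deficient cells with Trdc but no gamma chain RNA shared variable segments, which was noticed after the values were seen. Of the 18 with at least 3 Trdc UMIs, 12 held the beta segment Trbv2 and 11 the alpha or delta segment Trav21-dv12, 9 held both, and 14 held at least 1. Among 1663 Id2-deficient cells with Trac and Trbc2 but no Trdc, 6.13% (5.03 to 7.40) held Trbv2 and 1.26% (0.783 to 1.92) held Trav21-dv12. None of the 47 Id2-deficient cells with gamma chain RNA held either. Read the other way, 19 Id2-deficient cells with Trac and Trbc2 held both segments, 10 of them held Trdc, 9 with at least 3 UMIs, and none held gamma constant RNA. In control, 2 of the 37 cells without gamma chain RNA held Trav21-dv12 (5.41%), against 0.37% of 3513 cells with no Trdc, and none held Trbv2. Also in control, 3 Trac and Trbc2 cells held both segments and none held Trdc, and none of the 6 control cells with at least 3 Trdc UMIs and no gamma chain RNA held either. Another alpha segment, Trav13d-1, was in 4 of the 18 Id2-deficient cells (22.2%), against 0.661% (0.331 to 1.18) of the 1663 with no Trdc. These counts carry no junction sequence, so whether the cells descend from 1 clone cannot be told.

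**Figure D5:**
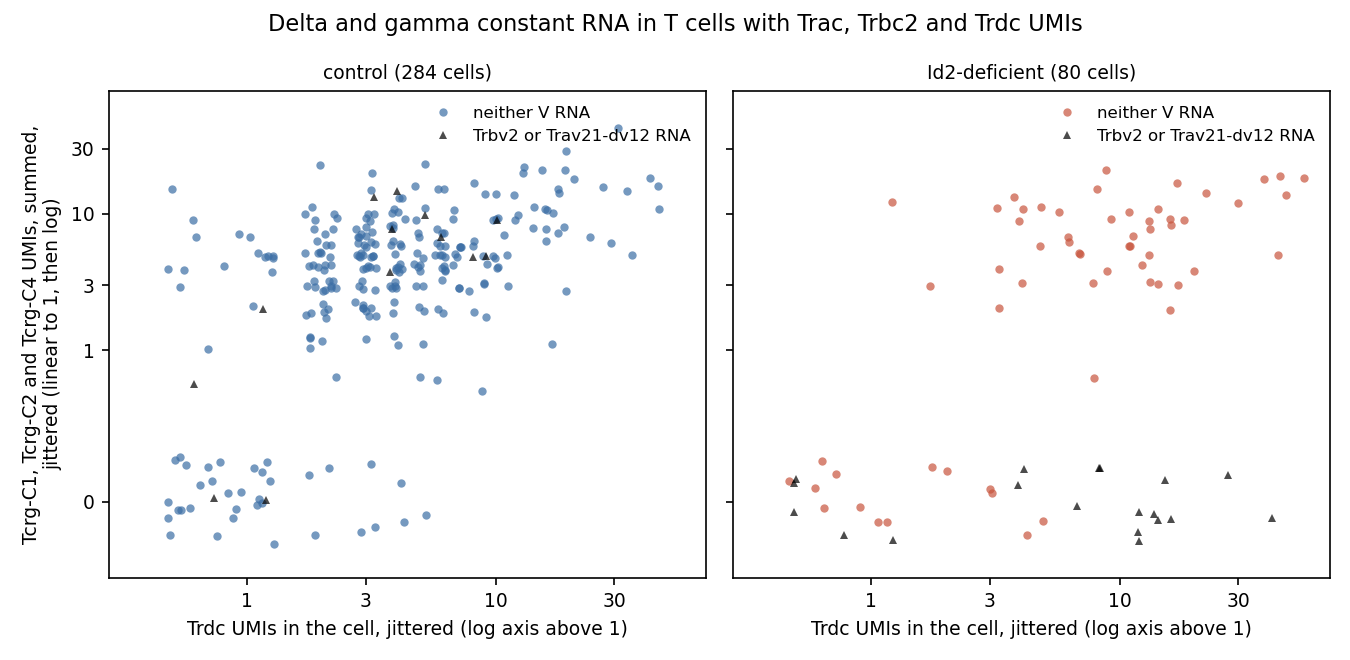
Trdc UMIs (horizontal) and summed Tcrg-C1, Tcrg-C2 and Tcrg-C4 UMIs (vertical) in each T cell with Trac, Trbc2 and Trdc UMIs, jittered, on axes that are logarithmic above 1 (284 control and 80 Id2-deficient cells). Triangles held Trbv2 or Trav21-dv12 RNA. In the Id2-deficient panel all 19 triangles lie on the row with no gamma constant UMI, 14 of them at 3 or more Trdc UMIs.

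T cell receptor segments were left out, and the 10 other genes outside the set that followed Trdc most closely were then taken. They were ranked by the smaller of the 2 within-library Pearson correlations across T cells, among 10585 genes found in at least 20 T cells of each library. They were Cryba4 (r of 0.63 in control and 0.68 in Id2-deficient cells), Jaml (0.62 and 0.60), Cd79b (0.57 and 0.59), Abi3bp (0.64 and 0.55), Itgae (0.54 and 0.56), Kcnk1 (0.55 and 0.51), Cd7 (0.60 and 0.47), Ccr10 (0.46 and 0.41), Actn2 (0.40 and 0.52) and Serpinb1a (0.40 and 0.43). Among the 9 genes themselves, Blk stood at 0.80 in both libraries and Cd163l1 lowest, at 0.45 and 0.34. Cryba4, a crystallin gene, was at 207 CPM in control and 195 CPM in Id2-deficient Trdc-high cells. Cd7 was at 464 and 257 CPM there, a log2 difference of -0.85 (-1.03 to -0.68), and Kcnk1 at 126 and 75.9 CPM, a log2 difference of -0.73 (-1.06 to -0.41).

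Cd79b, which encodes a B cell receptor subunit, was in 60.5% of control and 61.2% of Id2-deficient Trdc-high cells, at 149 and 164 CPM. The T cell gate itself allows at most 1 UMI of the other defining B cell genes it counts. Within it, Cd79a had 2 UMIs in control and none in Id2-deficient cells, and Ms4a1 had none in either. Blk, also a B cell gene, was in 14 of 41 control and 16 of 38 Id2-deficient B cells. Over the 8 B cell markers listed, the summed level was 374 CPM in control and 751 CPM in Id2-deficient Trdc-high cells, and 128 and 381 CPM in cells with no Trdc. Most of the difference between libraries was Ighm, at 32.5 and 356 CPM in Trdc-high cells and 78.0 and 297 CPM in cells without Trdc. Its part in the other comparisons was not tested.

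The other genes of the receptor and its pathway were taken from lists chosen with earlier results of these data known. Of 31 other gamma and delta segments, 12 had enough UMIs, 6 of them at least 1.5-fold higher in Trdc-high cells in both libraries and 3 that much lower, against 5.78% and 6.29% of all genes. Trdv4 was at 197 CPM in control Trdc-high cells and 0.192 CPM in control cells without Trdc. Tcrg-V6 was at 25.9 and 0.154 CPM in control and 25.3 and 0.241 CPM in Id2-deficient cells. Trdv5, which overlaps Trdc on the opposite strand, was at 31.4 and 0.192 CPM in control and 49.8 and 0.161 CPM in Id2-deficient cells. The lower 3 were alpha or delta segments, among them Trav14d-3-dv8. Trdv4 had no UMI in Id2-deficient cells without Trdc and 170 UMIs in 27 Id2-deficient Trdc-high cells.

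Of 9 genes of the CD3 complex and of signalling close to the receptor, 8 were measured, none was higher in both libraries and 2 were lower, against 5.78% and 6.29% of all genes. The 2 were the Src family kinases Lck, at 61.0 CPM in control Trdc-high cells and 360 CPM in cells without Trdc (94.6 and 512 CPM in Id2-deficient), and Fyn, at 67.6 and 130 CPM (72.6 and 227 CPM). The kinase Blk thus ran opposite to its relatives Lck and Fyn within both libraries. Cd247, the zeta chain, was at 306 and 161 CPM in control and 238 and 179 CPM in Id2-deficient cells.

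Among 16 regulators, 13 were measured, 2 were higher in Trdc-high cells in both libraries, Zbtb16 among them, and 4 lower, against 5.78% and 6.29% of all genes. Zbtb16, which encodes PLZF of innate-like T cells, was at 26.5 and 0.73 CPM in control and 27.7 and 3.29 CPM in Id2-deficient cells. Egr3, Lef1, Hes1 and Id3 were the lower ones. Of these, 2 rested on few UMIs in Trdc-high cells: Egr3 had 2 in control and 6 in Id2-deficient cells. Hes1 had 1 in control and 4 in Id2-deficient cells, the 4 in 1 cell. Id3, the close relative of Id2, was at 16.5 CPM in control and 140 CPM in Id2-deficient Trdc-high cells, a log2 difference of 3.09, and at 44.7 and 218 CPM in cells without Trdc. Maf was at 436 and 708 CPM in Trdc-high cells, a log2 difference of 0.70.

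Of 23 effector and surface genes of gamma delta cells that make interleukin 17, all were measured, 14 were higher in Trdc-high cells in both libraries and 2 lower, against 5.78% and 6.29% of all genes. Il23r, the receptor of the cytokine that sustains these cells, was at 72.6 and 13.6 CPM in control and 90.6 and 22.2 CPM in Id2-deficient cells. Actn2 was at 360 and 130 CPM in control and 277 and 26.2 CPM in Id2-deficient cells. Serpinb1a was at 363 and 112 CPM in control and 268 and 34.4 CPM in Id2-deficient cells. The lower genes were Cd27, a surface receptor known from interferon gamma producers, and Il22. Il22 had 4 UMIs in control and 6 in Id2-deficient Trdc-high cells, against 791 and 535 in cells without Trdc. Il17f was at 29.6 CPM in control and 111 CPM in Id2-deficient Trdc-high cells, a log2 difference of 1.91.

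Of 7 genes of gamma delta cells that make interferon gamma, 6 were measured. Against 5.78% of all genes higher and 6.29% lower, 1 was higher and 2 were lower. Klrk1, which encodes the receptor NKG2D, was higher in Trdc-high cells in both libraries, at 116 and 42.1 CPM in control and 179 and 8.19 CPM in Id2-deficient cells. Cd27 and Klrd1 were lower in both. Ifng was at 5.92 CPM in control Trdc-high cells and 39.3 CPM in control cells without Trdc, and at 2.45 and 3.05 CPM in Id2-deficient cells.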

How the data were processed

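The deposited values are raw UMI counts per gene and cell barcode, made by the authors from 10x Genomics Chromium single cell 3′ libraries. Cell Ranger 1.3 and mm10 are named in the submitters' processing notes, while cellranger 5.0.1 is named per the file headers, and this difference could not be resolved. The sources used here do not say whether the counting used strand.

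The cell filter asked for 200 or more genes and no more than 10% mitochondrial UMIs. T cells needed at least 2 UMIs over Cd3e, Cd3d and Cd3g and at most 1 over B cell genes including Cd79a and Ms4a1. Some genes of the gates and lists are not reported here. The design had also counted Cd79b, and this was changed after seeing the data. B cells had at least 3 B gene UMIs and at most 1 CD3 UMI. Doublets were not called, and an alternative left out the deepest 4% of cells. No cells were clustered. Levels are UMIs per 1000000 UMIs of the cells summed (CPM). Genes needed 50 UMIs over both libraries, and a ratio of 1.5 was the threshold. With 1 library per genotype, no test was made. The interval and thinning code was tested on simulated data.

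All 9 genes are named, with the 10 genes most like Trdc other than T cell receptor segments. Up to 3 genes are named at each end of each list by the ratio of Trdc-high to Trdc-negative cells. Genes named outside this rule, such as Id3, Maf, Il17f, Ifng and the variable segments, were chosen after their values were seen. The 9 genes and the lists were chosen with earlier results of these data known. Sequences are from RefSeq (GRCm38.p6) and GENCODE M21 (GRCm38). Software was Python 3.11.15, numpy 2.4.6, scipy 1.17.1, pandas 2.3.3 and matplotlib 3.10.9.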

Additional observations from a re-analysis of the deposited data

How the results depend on the processing

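No paired analysis was possible because each genotype was 1 library, and no replicate could be left out. Of 293 values recomputed under 16 alternatives, 219 moved by less than their counting interval or by less than 1.5 times for a count, 74 moved by more, and no value past 1.5-fold changed sign. Smaller log2 differences took both signs over the alternatives for Trdc (-0.41 to 0.03), Cd163l1 (-0.56 to 0.05) and 5830411N06Rik (-0.24 to 0.11) over T cells, and for Blk (-0.17 to 0.09), Cd163l1 (-0.18 to 0.43) and Tcrg-C2 (-0.34 to 0.87) in Trdc-high cells. The last 3 alternatives (a gamma chain UMI required, Trbv2 cells left out, the T cell gate counting Cd79b) were chosen after seeing the data. The count of genes at least 1.5-fold lower in Trdc-high cells was 1, from Trgv2. It was 0 with no cell filter, with CPM outside mitochondrial genes, with size factors by the median of ratios, with a fold of 2, with a gate of 5 Trdc UMIs, with a gamma chain UMI required and without the Trbv2 cells, and it was 2 after thinning to 1000 UMIs. The log2 difference of Trgv2 lay between -1 and -0.47. Over all T cells a fold of 2 gave 3 genes in place of 6, and the stricter cell filter gave 5, without Sox13.

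The share of T cells that were Trdc-high was 1.26% in control and 1.07% in Id2-deficient cells after thinning, 15.6% in control at a gate of 2, 7.32% and 6.47% at a gate of 5, 9.63% and 4.99% with the gate counting Cd79b, and 9.58% in Id2-deficient cells with at least 500 genes and at most 5% mitochondrial UMIs. The share of Trdc-high cells with gamma chain RNA was 68.3% and 55.0% after thinning, and in control 98.9% at a gate of 5 and 98.9% with every gamma segment counted. In Id2-deficient cells it was 78.9% with the gate counting Cd79b and 94.1% without the Trbv2 cells, which were chosen as lacking gamma chain RNA, so this share could only rise. The share of Trac and Trbc2 cells with Trdc was 1.37% and 1.68% after thinning, 5.04% and 2.96% with at least 2 UMIs of each, and 5.54% and 3.34% with the gate counting Cd79b. Of those, the share without gamma chain RNA was 85.7% and 75.0% after thinning, 17.6% and 56.1% with the gate counting Cd79b, and in Id2-deficient cells 56.3% with at least 2 UMIs of each and 26.6% without the Trbv2 cells, which could only lower it. The cause of these shifts was not tested, except that thinning and stricter gates leave fewer UMIs or cells by construction. Low UMI counts limit the Sox13 values, and the Id2-deficient bins of 1 to 6 Trdc UMIs are limited by their 5 to 16 cells.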

Other observations

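Trdc-high cells made up 98 of 328 control T cells with Il17a or Il17f RNA (29.9%) and 37 of 120 Id2-deficient ones (30.8%), against 12.8% and 7.86% of all T cells. Among cells with Cxcr5, a receptor of follicular helper T cells, they were 4 of 275 (1.45%) and 7 of 581 (1.20%). Among cells with at least 2 UMIs of Nkg7, a cytotoxic granule gene, they were 18 of 721 (2.50%) in control. In the Id2-deficient library they were 0 of 19, with an interval that reaches 17.6%. Among cycling cells with Mki67 and Top2a they were 33 of 261 (12.6%) and 6 of 86 (6.98%).

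Of the genes on the lists, Il17f and Id3 were higher in Id2-deficient than in control Trdc-high cells (log2 differences of 1.91 and 3.09), as was Cd27, by 2.44 (1.81 to 3.08), which in cells without Trdc was at 43.5 CPM in control and 150 CPM in Id2-deficient cells. Lgals3, which encodes galectin 3, was at 385 and 143 CPM in Trdc-high cells and at 305 and 30.3 CPM in cells without Trdc. Cxcr6, a chemokine receptor gene, was at 783 and 500 CPM in Trdc-high cells and at 371 and 98.7 CPM in cells without Trdc. Igkc, an immunoglobulin light chain gene, was at 16.7 and 99.5 CPM in Trdc-high cells and at 15.7 and 17.1 CPM in cells without Trdc.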
